A study of Ovis aries with 20 samples.

Results

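The genes described are 10 matrix proteases and protease inhibitors of follicle remodelling: the metalloproteinases MMP1, MMP2, MMP13 and MMP14, their inhibitors TIMP1, TIMP2 and TIMP3, the disintegrin-like protease ADAMTS1, the plasminogen activator PLAT (tissue-type, tPA) and the serpin SERPINE2 (protease nexin 1). They were taken by gene name from a table of 28524 genes, each name matched 1 row, and 10 of 10 passed the filter on low values. Granulosa cells, which line the inside of the follicle, and theca cells, the steroid-making and vascular layer around it, were compared in adult sheep after exposure to testosterone before birth.

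A growing follicle keeps enlarging inside a collagen-rich wall and finally breaks through it, so its matrix is cut and rebuilt throughout its life. Secreted collagenases (MMP1, MMP13) cut fibrillar collagen, the gelatinase MMP2 degrades cut collagen and basement membrane, and MMP14 sits in the cell membrane, cuts collagen itself and activates MMP2 with the help of TIMP2. TIMPs block these enzymes, ADAMTS1 cleaves the proteoglycan versican, and PLAT turns plasminogen into plasmin, a step that SERPINE2 inhibits.

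Prenatal T animals were born to ewes given 100 mg testosterone propionate (1.2 mg/kg) into the muscle 2 times a week on gestation days 30 to 90, and controls to ewes given vehicle. All were sampled at 21 months, 18 h after the second of 2 injections of 10 mg prostaglandin F2α spaced 11 days apart, a treatment that brings on the follicular phase and that both groups share. Each library pools 1 layer of several antral follicles of 1 animal, dissected from 14 µm cryosections, so a value is a mean over follicles that may differ in stage. There were 5 prenatal T and 4 control granulosa libraries and 5 prenatal T and 5 control theca libraries, with 9 animals giving both layers. The replicates are animals, named here by their sheep numbers. Granulosa cells of control sheep 139 were not analysed here. Values are the authors' normalized counts, which hold no correction for gene length, so levels are compared between libraries of 1 gene and never between genes. In such bulk samples fewer cells of a type and less RNA per cell cannot be told apart. No sequence is shown.

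Depth was 12.7 to 26.0 M reads per library. The defining markers matched the labelled layer in 17 of 19 libraries. The 2 libraries of prenatal T sheep 209 lacked defining markers of their labelled layer. FSHR, CYP19 and AMH, which mark granulosa cells, were at 0 in its granulosa library, and CYP17A1, which marks theca cells, was at 0 in its theca library. That theca library still held a summed level of 391345 over 13 theca markers, with 1 of them at 0. The sum was 608791 to 723558 in the other prenatal T theca, 661834 to 898511 in control theca and at most 85917 in control granulosa libraries. A sum is carried by its most abundant genes. The mean log2 level of these markers was 10.8 in theca of sheep 209, against 13.1 to 13.5 in the other theca libraries and at most 10.7 in control granulosa. The summed level of 12 granulosa markers was 2511 in the granulosa library of sheep 209, against 90699 to 182431 in the other 4 prenatal T and 65354 to 156760.2 in the 4 control granulosa libraries. Control 246 had both the lowest granulosa marker sum (65354) and the highest theca marker sum (85917) of control granulosa. Neutrophil markers summed to 81389 in its granulosa and 44899 in its theca library, against at most 98.0 in the others. Epithelium markers summed to 93841 and 23437 in the same libraries, against at most 812 in the others. The tests of the members are therefore given with all animals and without sheep 209, as are the group means that include it. For genes that are not members the set of animals is named.

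Sheep 209 gave the highest value of its layer for 5 of 10 members in granulosa and for 9 of 10 in theca, and the lowest for 1 member, TIMP3, in granulosa. MMP1 reached 10930.2 normalized counts in the library labelled granulosa of sheep 209, against at most 133 in the other 8 granulosa libraries. PLAT reached 29058 there, against at most 807 in the others. Among 40 group means (10 members in 4 groups), 12 changed by more than 1.5 times when their highest library was left out, and in 7 of these that library was from sheep 209. The largest of these shifts were in MMP1 of theca, where the prenatal T mean was 98.1 times as high with sheep 209 as without it, in MMP1 of granulosa (25.2 times) and in PLAT of granulosa (15.8 times). In control groups 4 means moved as much: MMP1, MMP13 and TIMP1 of granulosa and MMP13 of theca each rested on control sheep 246. The remaining mean, TIMP2 of prenatal T granulosa, was 1.56 times as high with sheep 315 as without it.

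**Figure D1:**
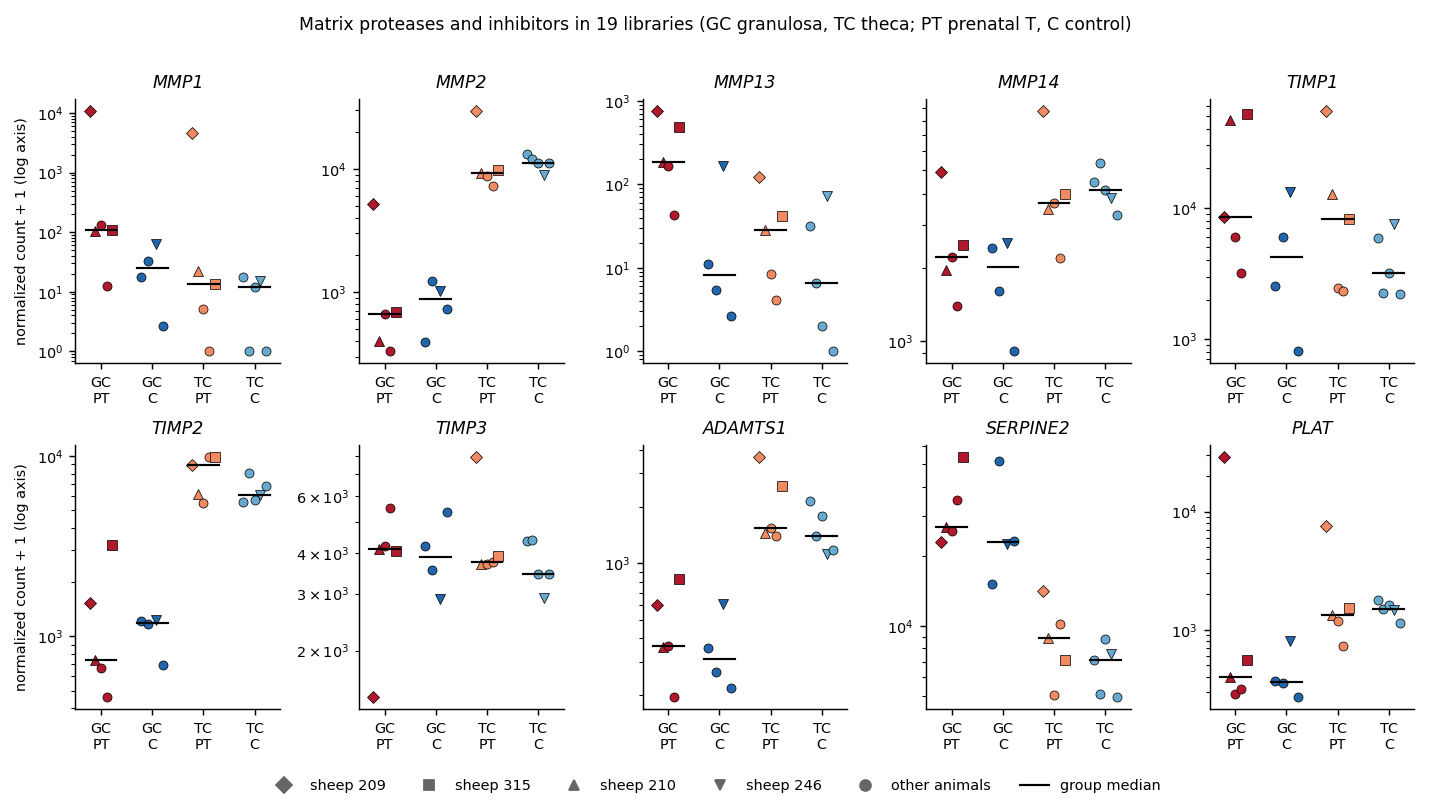
Normalized counts plus 1 of the 10 members on a log axis, 1 panel per gene and 1 point per library in 4 groups (prenatal T and control granulosa, prenatal T and control theca), with sheep 209 drawn as a separate symbol. The 2 sheep 209 points stand far above the rest for MMP1 and PLAT, and in theca they are the highest for 9 of 10 members.

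Between the layers, 8 of 10 members differed. MMP1, MMP13 and SERPINE2 were higher in granulosa and MMP2, TIMP2, ADAMTS1, PLAT and MMP14 were lower there, while TIMP1 and TIMP3 did not pass the test (limma on log2 of the value plus 1 with the animal as a block, two-sided, Benjamini-Hochberg adjusted p under 0.05). Of all 16269 genes tested, 56.6% were called in this comparison, 28.7% higher in granulosa and 28.0% lower, so a call between layers is common, and the members are described by the size and steadiness of their difference. The median difference over the members, granulosa minus theca, was -0.53 on the log2 scale, beside 0.02 over all genes tested. Without sheep 209, 9 of 10 members were called, 4 higher and 5 lower in granulosa, where 62.4% of all genes were called (31.4% higher, 31.0% lower).

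Both collagenases were higher in granulosa than in theca in 9 of 9 animals, a direction that 15.8% of tested genes showed in every animal. That it held in 8 of 8 without sheep 209, whose libraries lacked defining markers of their layer, follows from this and is no further check. MMP1 had 106, 133, 11.5 and 108 normalized counts in granulosa of prenatal T sheep 210, 230, 276 and 315, against 21.3, 4.19, 0 and 12.5 in theca of the same animals. In controls 244, 246, 268 and 224 it had 32.0, 61.4, 1.62 and 16.7 in granulosa, against 11.0, 14.1, 0 and 0 in theca. In control 268 the difference rested on fewer than 3 reads against 0. MMP1 was thus a rare transcript outside sheep 209, with at most 20 reads in any other theca library. Its mean difference was 2.65 ± 0.39 on the log2 scale (SE, adjusted p = 0.000147 by limma) and 2.83 ± 0.40 without sheep 209.

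MMP13, the second collagenase, had 182, 165, 42.4 and 483 normalized counts in granulosa of prenatal T sheep 210, 230, 276 and 315, against 27.7, 7.33, 3.07 and 41.0 in their theca. In controls 244, 246, 268 and 224 it had 4.41, 167, 1.62 and 10.0 in granulosa, against 1.0, 71.4, 0 and 5.60 in theca. The granulosa value was the higher in each animal, although in control 268 it rested on 2 reads against 0. The mean difference was 2.37 ± 0.38 on the log2 scale (SE, adjusted p = 0.000264 by limma) and 2.34 ± 0.40 without sheep 209. For MMP1 and MMP13 the call between layers was lost when the animal was not used as a block (limma adjusted p = 0.210 and 0.112). That fit also held theca of control 139 and kept sheep 209, so the loss cannot be laid to pairing alone.

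MMP2 showed the largest difference between layers of the members, -3.80 ± 0.22 on the log2 scale (SE, adjusted p = 2.19e-07 by limma) and -3.96 ± 0.18 without sheep 209. In prenatal T animals 209, 210, 230, 276 and 315 it had 5241, 404, 659, 330.1 and 690.3 normalized counts in granulosa, against 29771, 9372, 8831, 7318 and 9736 in theca. In controls 244, 246, 268 and 224 it had 1241, 1027, 731 and 394 in granulosa, against 11230.3, 8887, 11099 and 12113 in theca. No granulosa library reached the lowest theca library, but how many of all tested genes separate the layers in this way was not counted. Outside sheep 209, granulosa held 3.25 to 11.6% of the MMP2 level of the animal's theca. Theca markers, summed over their list, stood at 3.22 to 11.5% of the theca level in granulosa of the same animals, and in sheep 246, which had the highest MMP2 share, they stood at 11.5%. The part of theca RNA in the granulosa value of MMP2 was not tested.

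MMP14, which activates pro-MMP2 at the membrane, was lower in granulosa by a smaller amount, at -0.97 ± 0.12 on the log2 scale (SE, adjusted p = 5.25e-05 by limma) and -0.98 ± 0.13 without sheep 209. Granulosa held 56.0 to 64.1% of the theca level in the 5 prenatal T animals, sheep 209 included, and 27.6 to 65.9% in the 4 controls. The prenatal T animals thus lay within a narrow band inside the range of the controls.

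The 3 inhibitors of the TIMP family divided between the layers. TIMP2 was 4.62 to 32.8% of the theca level in granulosa, lower in 9 of 9 animals (15.0% of tested genes were lower in every animal), with a mean difference of -2.82 ± 0.22 (SE, log2 scale, adjusted p = 1.89e-06 by limma) and -2.85 ± 0.23 without sheep 209. TIMP3, a TIMP held in the matrix, differed least between the layers: outside sheep 209 granulosa held 96.1 to 156% of the theca level, and in sheep 209 it held 18.1%. Its mean difference of -0.10 ± 0.26 became 0.20 ± 0.08 without sheep 209, with limma adjusted p values of 0.766 and 0.0532. TIMP1 was higher in granulosa in 7 of 9 animals and lower in control 268 and in sheep 209. Its difference, 0.45 ± 0.46 with all animals (adjusted p = 0.431 by limma), was 0.84 ± 0.34 without sheep 209 (adjusted p = 0.0450).

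ADAMTS1, a protease whose loss is known to impair ovulation in mice, was lower in granulosa in 9 of 9 animals, at 14.0 to 54.1% of the theca level and with a mean difference of -2.13 ± 0.18 (SE, log2 scale, adjusted p = 2.52e-06 by limma), or -2.07 ± 0.18 without sheep 209. The highest share was that of control 246.

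In the plasminogen system the activator and the inhibitor lay on opposite sides. SERPINE2 was higher in granulosa in 9 of 9 animals, by 2.99 to 7.58 times outside sheep 209 and by 1.64 times in sheep 209, with a mean difference of 1.93 ± 0.19 (SE, log2 scale, adjusted p = 9.33e-06 by limma), or 2.08 ± 0.15 without sheep 209. In prenatal T animals 209, 210, 230, 276 and 315 it had 23198, 26901, 25706, 35197 and 53977 normalized counts in granulosa, against 14166, 8898, 5052, 10222 and 7119 in theca. In controls 244, 246, 268 and 224 it had 51642, 22732, 23313 and 15173 in granulosa, against 8769, 7599, 4916 and 5063 in theca. Every granulosa library exceeded every theca library, a separation whose share over all tested genes was not counted either.

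PLAT was lower in granulosa in 8 of 9 animals, at 21.7 to 55.2% of the theca level, and higher there in sheep 209 alone, with 29058 normalized counts in granulosa against 7559 in theca. Its mean difference was -1.30 ± 0.37 with all animals (SE, log2 scale, adjusted p = 0.00991 by limma) and -1.71 ± 0.14 without sheep 209 (adjusted p = 6.83e-07). Like the collagenases, PLAT lost its call when the animal was not used as a block (adjusted p = 0.136).

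**Figure D2:**
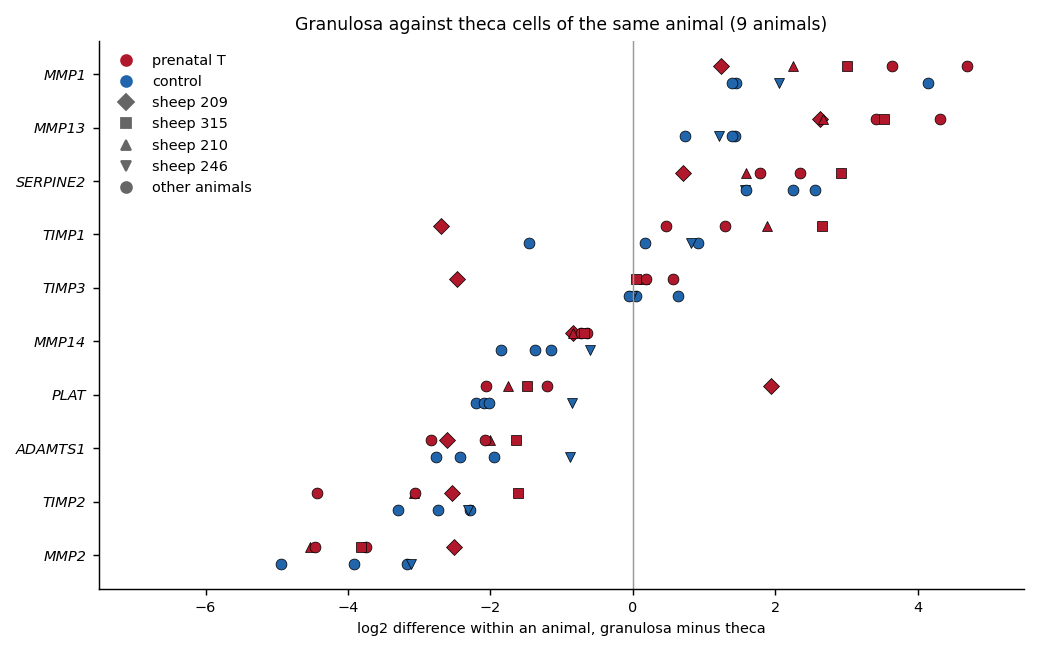
Difference between layers of each member in each animal, as log2 of granulosa over theca (value plus 1), with prenatal T animals and controls marked apart and a line at 0. MMP1, MMP13 and SERPINE2 lie above 0 in 9 of 9 animals, MMP2, MMP14, TIMP2 and ADAMTS1 lie below it in 9 of 9, and the only PLAT point above 0 is sheep 209.

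Prenatal T was set against control within granulosa to ask which of these genes differed in adult life. No member was called (0 of 10, adjusted p 0.879 to 0.994 by limma), and no gene of the 16269 tested was either, so the share called was 0%. At an unadjusted p under 0.05 there were 1 member, MMP13, and 691 genes (4.25%). edgeR's quasi-likelihood test on recovered reads called 0 genes (972 at an unadjusted p under 0.05), and DESeq2 called 20, with no member among them. The members' median change was 0.38 on the log2 scale with 8 of 10 above 0, and 0.19 with 7 of 10 above 0 without sheep 209, beside -0.01 and -0.02 over all genes tested. In no member did the libraries of the groups fail to overlap, which 2.35% of tested genes did (3.82% without sheep 209). Without sheep 209, 1 member and 6.87% of genes had an unadjusted p under 0.05.

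MMP13 had the largest log2 change of the members in granulosa by limma on log2 of the value plus 1. On recovered reads MMP1 came first, at 6.29 by edgeR and 6.35 by DESeq2 with sheep 209 included, against 2.83 and 2.87 for MMP13. MMP13 had 759, 182, 165, 42.4 and 483 normalized counts in prenatal T sheep 209, 210, 230, 276 and 315, against 4.41, 167, 1.62 and 10.0 in controls 244, 246, 268 and 224. The prenatal T values lay above 3 of the 4 controls, and control 246 lay among them. The change was 4.09 ± 1.24 on the log2 scale (SE, limma, unadjusted p = 0.00903, adjusted p = 0.879), rank 84 of 16269 genes by p, and 3.64 ± 1.23 without sheep 209 (unadjusted p = 0.0157, adjusted p = 0.707). It was 5.33 without control 246 and 3.33 without control 268. The control mean of 45.7 ± 80.9 (SD, n = 4) became 5.35 without sheep 246, which alone held 231 reads against 2 to 18 in the other 3 controls.

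MMP1 had 10930.2, 106, 133, 11.5 and 108 normalized counts in prenatal T granulosa, with the sheep in the same order, against 32.0, 61.4, 1.62 and 16.7 in controls. Sheep 210, 230 and 315 lay above each control and sheep 276 lay below 3 of the 4. The mean of 2258 ± 4848 (SD, n = 5) in prenatal T granulosa was 89.5 ± 53.5 without sheep 209 (n = 4), against 27.9 ± 25.5 in controls (n = 4). The log2 change was 3.39 ± 1.76 with all animals and 1.92 ± 1.06 without sheep 209 (SE, limma adjusted p = 0.879 and 0.750), and from 2.47 to 4.36 when 1 of controls 268 and 246 or sheep 276 was left out.

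TIMP1 had 8554, 46791, 6026, 3195 and 51742 normalized counts in prenatal T granulosa, against 5976, 13235, 807 and 2548 in control granulosa. Sheep 210 and 315 lay above all controls, and the other 3 prenatal T libraries lay within the controls' range. The log2 change was 1.88 ± 1.04 (SE, adjusted p = 0.879 by limma) and 2.04 ± 1.09 without sheep 209 (adjusted p = 0.750). It was 1.17 without control 268 and 2.51 without control 246. In sheep 315, summed markers of ovulation and luteinization were 8229, against 678 to 1846 in sheep 210, 230 and 276 and 1506 to 2200.4 in control granulosa, and leukocyte markers were 2526, against 202 to 1582 and 799 to 1547. The ovulation and luteinization markers did not all rise in sheep 315: STAR was 1853 and EREG 283, whereas PTGS2 was 0. PTGFR, at 504, lay within the 95.9 to 643 of control granulosa. The part of follicle stage or of leukocytes in the TIMP1 and MMP13 values was not tested.

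PLAT in granulosa had 29058, 398, 283, 313 and 551 normalized counts in prenatal T sheep 209, 210, 230, 276 and 315, against 355, 807, 268 and 371 in controls 244, 246, 268 and 224. The mean in prenatal T granulosa was 6121 ± 12823 (SD, n = 5), of which sheep 209 supplied 95.0%, and 386 ± 120.0 without it (n = 4), against 450.2 ± 242 in controls (n = 4). Without sheep 209 the log2 change was -0.14 ± 0.34, where it was 1.12 ± 1.28 with all animals (SE, limma adjusted p = 0.935 and 0.885). The sign of the PLAT change in granulosa therefore rested on 1 animal.

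MMP2 likewise averaged 1465 ± 2117 in prenatal T granulosa (SD, n = 5) and 521 ± 181 without sheep 209 (n = 4), against 848 ± 368 in controls (n = 4), with log2 changes of 0.03 ± 0.76 and -0.65 ± 0.37 (SE, limma adjusted p = 0.994 and 0.750). Theca markers in the same granulosa libraries stood at 3.22 to 6.79% of the animal's theca level in the 4 prenatal T animals without sheep 209, against 5.41 to 11.5% in controls.

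The other 5 members had changes of at most 0.45 in size on the log2 scale in granulosa, with or without sheep 209. SERPINE2 averaged 32996 ± 12564 in prenatal T and 28215 ± 16052 in control granulosa (SD, n = 5 and 4), with 35445 ± 13056 in prenatal T without sheep 209, and its highest libraries were sheep 315 and control 244. TIMP2 averaged 1323 ± 1139 in prenatal T (1271 ± 1309 without sheep 209) and 1074 ± 253 in control granulosa, with 3226 in sheep 315 and 457 to 1532 in the other prenatal T animals. TIMP3 averaged 3868 ± 1488 in prenatal T and 4002 ± 1058 in control granulosa, and 4477 ± 695 in prenatal T without sheep 209. MMP14 averaged 2594 ± 1362 in prenatal T (2012 ± 461 without sheep 209) and 1867 ± 759 in control granulosa. ADAMTS1 averaged 468 ± 245 in prenatal T (435 ± 269.8 without sheep 209) and 362 ± 175 in control granulosa, with the highest values in sheep 315 and control 246. These differences were smaller than the spread between animals.

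**Figure D3:**
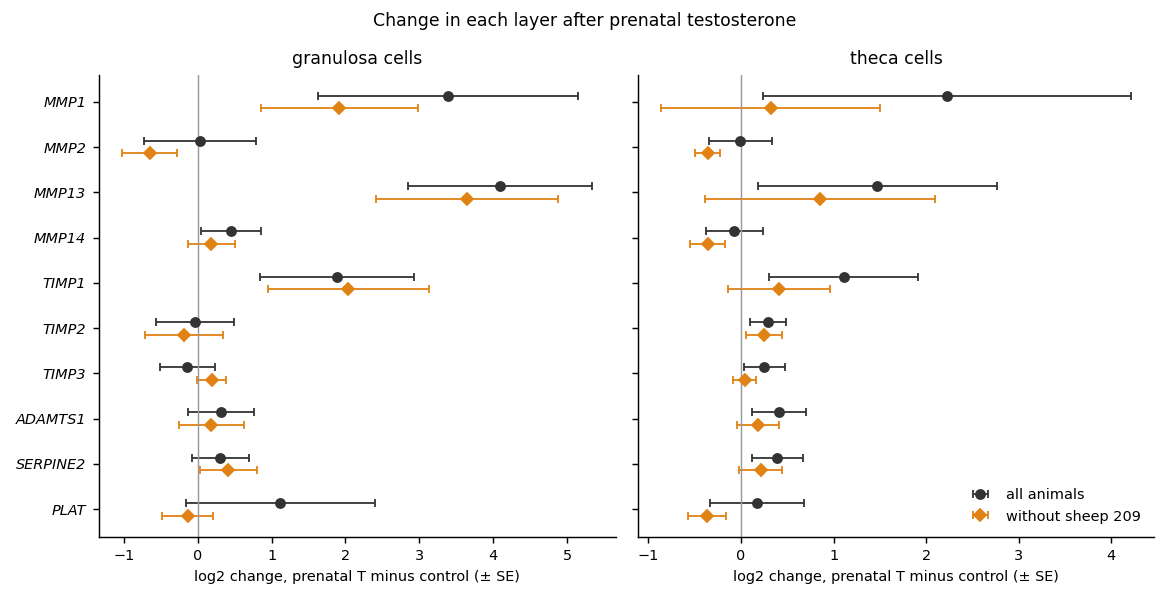
Log2 change of each member, prenatal T minus control, in granulosa and in theca, with all animals and without sheep 209, with bars of 1 SE from limma. Without sheep 209 the granulosa changes of MMP13 (3.64), TIMP1 (2.04) and MMP1 (1.92) stay above 0 by more than 1 SE, whereas PLAT moves to -0.14.

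In theca the same comparison called 0 of 10 members (adjusted p 0.697 to 0.998 by limma) and 0 of 16269 genes, a share of 0%, with 0 members and 1261 genes (7.75%) at an unadjusted p under 0.05. edgeR called 0 genes (1663 at an unadjusted p under 0.05) and DESeq2 called 7, none of them a member. The members' median change was 0.34 with all animals and 0.20 without sheep 209 (log2 scale), beside 0.003 and -0.01 over all genes. The groups overlapped for each member, where 2.21% of genes had groups that did not (4.47% without sheep 209).

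In prenatal T theca 4 of 10 means (MMP1, MMP13, TIMP1 and PLAT) were over 1.5 times as high with sheep 209 as without it. TIMP1 had 55092, 12691, 2464, 2320.1 and 8203 normalized counts in prenatal T sheep 209, 210, 230, 276 and 315, against 5896, 3167, 7492, 2224 and 2259.7 in controls 139, 244, 246, 268 and 224. Besides sheep 209, sheep 210 and 315 lay above all controls, as they did in granulosa, and the other 2 lay among them. Its mean was 16154 ± 22193 in prenatal T theca (SD, n = 5) and 6419.5 ± 4999 without sheep 209 (n = 4), against 4208 ± 2369 in controls (n = 5).

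PLAT had 7559, 1343, 1185, 723 and 1538 normalized counts in prenatal T theca, against 1779, 1636, 1463, 1147 and 1505 in control theca. Apart from sheep 209 the prenatal T libraries reached lower values, and their mean of 1197 ± 348 (SD, n = 4) stood beside 1506 ± 236 in controls (n = 5). The log2 change was 0.17 ± 0.51 with all animals and -0.37 ± 0.21 without sheep 209 (SE, limma adjusted p = 0.928 and 0.490).

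MMP2 without sheep 209 also averaged less than in controls, at 8814 ± 1065 in prenatal T theca (SD, n = 4), against 11335 ± 1636 (n = 5). That log2 change of -0.36 ± 0.14 had an unadjusted p of 0.0242 and an adjusted p of 0.392 by limma, and with sheep 209 it was -0.01 ± 0.34. With sheep 209 left out, 11.9% of all genes had an unadjusted p under 0.05 in theca. MMP14 was 3338 ± 796 in prenatal T theca without sheep 209, against 4227 ± 765 in controls, and in sheep 276 it was the lowest of theca at 2188.

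MMP13 and MMP1 were low in theca in both groups once sheep 209, with 121 and 4627 normalized counts, was left out. MMP13 averaged 19.8 ± 17.8 in prenatal T (SD, n = 4) and 21.7 ± 30.5 in control theca (n = 5), and MMP1 averaged 9.51 ± 9.45 and 8.41 ± 7.95 in the same groups. ADAMTS1 averaged 1737 ± 557 in prenatal T without sheep 209 and 1525 ± 437 in control theca, and sheep 315 was its highest library after sheep 209 at 2567. TIMP2 averaged 7864 ± 2338 without sheep 209 and 6460.3 ± 1028 in controls, with 9903 in sheep 276 and 9846 in sheep 315 above every control. TIMP3 averaged 3765 ± 102 without sheep 209, against 3709.7 ± 640.4 in controls. SERPINE2 averaged 7823 ± 2242 and 6703 ± 1671 in the same groups. None of these members passed the test, with or without sheep 209.

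The prenatal T effect was then compared between the layers within animals, which sets each granulosa library against the theca library of the same sheep. No member was called and no gene was (0%). At an unadjusted p under 0.05 there were 2 members, MMP13 and MMP14, and 758 genes (4.66%), and without sheep 209 there were 3 members, with TIMP1 added, and 1340 genes (8.24%). edgeR called 0 genes (793 at an unadjusted p under 0.05) and DESeq2 called 20, no member among them.

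For MMP13 the effect differed between layers by 2.12 ± 0.44 on the log2 scale (SE, limma, unadjusted p = 0.000613, adjusted p = 0.694), rank 10 of 16269 genes by p. Without sheep 209 it was 2.29 ± 0.48 (adjusted p = 0.464). The excess of granulosa over theca was 2.63, 2.67, 4.31, 3.41 and 3.53 on the log2 scale in prenatal T sheep 209, 210, 230, 276 and 315, against 1.43, 1.21, 1.39 and 0.74 in controls 244, 246, 268 and 224. The 5 prenatal T animals lay above the 4 controls without overlap, as 2.02% of tested genes did in either direction. Control 246, whose MMP13 level was high in both layers, lay at 1.21 among the other controls. In 3 of the 4 controls the excess rested on 18 reads or fewer in each layer, which the added value of 1 pulls towards 0. MMP14 differed by 0.50 ± 0.21 with all animals and 0.52 ± 0.21 without sheep 209 (limma adjusted p = 0.960 and 0.566). TIMP1 differed by 0.61 ± 0.96 with all animals and 1.46 ± 0.54 without sheep 209 (limma adjusted p = 0.965 and 0.541), and by 0.084 without control 268.

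Among the animals other than sheep 209, MMP1, MMP13 and TIMP1 went up and down together. Across 8 granulosa libraries Pearson's r was 0.84 for MMP1 with MMP13, 0.86 for MMP1 with TIMP1 and 0.83 for MMP13 with TIMP1, and across 9 theca libraries it was 0.70, 0.84 and 0.82 (log2 of the value plus 1). TIMP1 was highest in sheep 210, 315 and 246 in both layers, and MMP13 was highest in the same 3 animals in granulosa and in sheep 246, 315 and 139 in theca, so that high libraries came from both treatment groups. These points share animals, pooling of follicles and treatment, so the r values are a description only. MMP2 followed none of the 3, with r between -0.14 and 0.12 in either layer. PLAT varied with MMP14 (r = 0.65 in granulosa and 0.90 in theca), and MMP2 varied with MMP14 in theca (0.79) but not in granulosa (0.01). TIMP3 had a negative r with each of the other 9 members in granulosa, from -0.78 with PLAT to -0.05 with SERPINE2, whereas in theca its r with PLAT was 0.16.

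**Figure D4:**
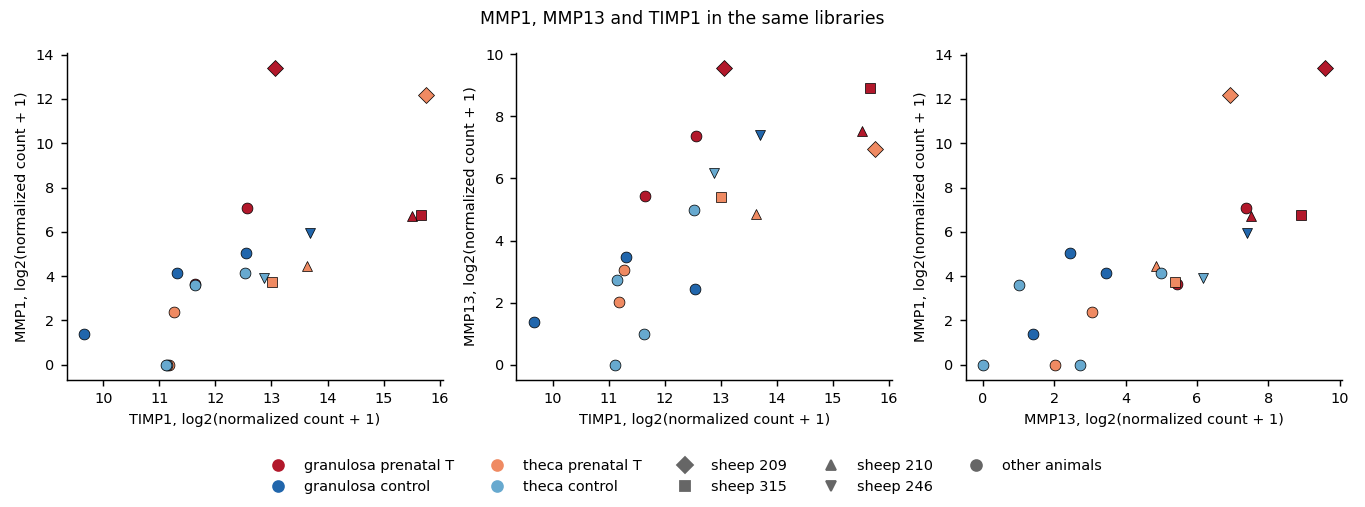
MMP1 against TIMP1, MMP13 against TIMP1 and MMP1 against MMP13, each as log2 of the normalized count plus 1. All libraries are drawn, coloured by group, with sheep 209 as a separate symbol. With sheep 209 left out, Pearson's r of these pairs was 0.70 to 0.86 (8 granulosa and 9 theca libraries).

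Genes whose pattern was most like each member were ranked over the same libraries by the mean of r within granulosa (n = 8) and r within theca (n = 9). They are the highest among all tested genes over few libraries, so a high r follows in part from the choice and is a description only. For TIMP1 these were JUNB, an AP-1 transcription factor (mean r 0.95), and DIO2, the deiodinase that activates thyroid hormone (0.94). For MMP1 they were DIO2 and TLE4 (0.90 each), and for MMP13 GABRA4 (0.91) and SLC37A2 (0.90). For TIMP2 the closest was STAR, which carries cholesterol into mitochondria for steroid synthesis (0.96 in both layers), and then ASS1 (0.89). In granulosa STAR and TIMP2 were both highest in sheep 315 (1853 and 3226 normalized counts), and in theca both were highest in sheep 276 and 315. MMP2 was closest to COL6A3, a collagen VI chain (0.93), and RUSC2 (0.91), MMP14 to LRRC20 (0.92) and PLXDC2 (0.91), and TIMP3 to LOC101110168 (0.92) and FOXRED2 (0.89). ADAMTS1 was closest to LPP (0.91) and TSC22D1 (0.89) and PLAT to ATP6V1E2 (0.90) and BCL2L11 (0.88). SERPINE2 had the loosest match, TRABD2B and CRLF3 at 0.84.

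Ratios of a protease to an inhibitor were taken within each library, as log2 of value plus 1 over value plus 1. They are given without a test. Since lengths are not corrected, only differences of a ratio between libraries can be read. PLAT to SERPINE2 was -6.50 ± 0.31 in prenatal T granulosa without sheep 209 (SD, n = 4) and 0.32 in sheep 209, against -5.95 ± 1.06 in control granulosa (n = 4). In theca it was -2.71 ± 0.79 in prenatal T without sheep 209 and -0.91 in sheep 209, against -2.13 ± 0.28 in controls (n = 5). Outside sheep 209 the range in granulosa, -7.18 to -4.81, lay below that in theca, -3.82 to -1.75.

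MMP14 to TIMP2 was 1.68, 1.40, 1.74, 1.61 and -0.38 in prenatal T granulosa of sheep 209, 210, 230, 276 and 315, against 0.47, 1.05, 0.39 and 1.0 in control granulosa. Thus 4 of 5 prenatal T animals lay above all controls and sheep 315, whose TIMP2 was the highest of granulosa, lay below them. In theca the same ratio was -0.02, -0.83, -0.59, -2.18 and -1.30 in prenatal T animals, against -0.31, -0.45, -0.67, -1.05 and -0.60 in controls, and the groups overlapped. MMP2 to TIMP2 averaged -0.89 ± 0.95 in prenatal T granulosa without sheep 209 and -0.43 ± 0.81 in control granulosa, and 0.21 ± 0.53 and 0.81 ± 0.30 in the same groups of theca. ADAMTS1 to TIMP3 averaged -3.54 ± 1.03 in prenatal T granulosa without sheep 209 and -3.54 ± 0.98 in control granulosa, and -1.16 ± 0.38 and -1.31 ± 0.32 in theca. Neither of these last ratios separated the treatment groups.

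**Figure D5:**
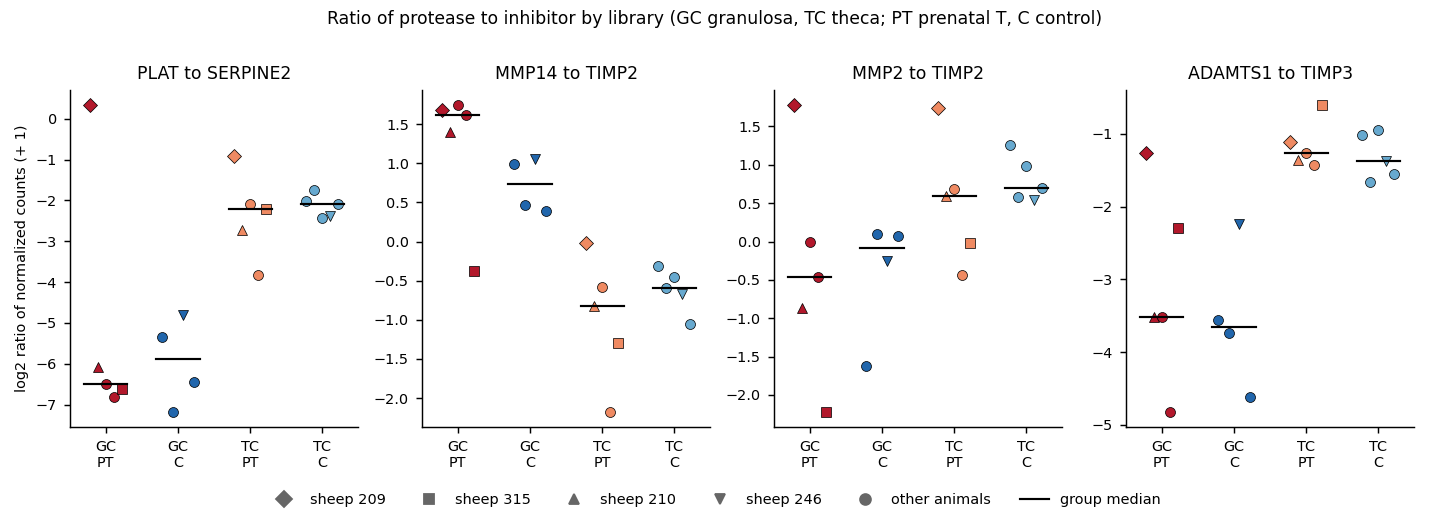
Log2 ratios of 4 protease to inhibitor pairs in each library, in prenatal T and control granulosa and prenatal T and control theca. PLAT to SERPINE2 lies lower in granulosa than in theca except in sheep 209, and MMP14 to TIMP2 of sheep 315 stands below the other granulosa libraries at -0.38.

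A wider set of 88 matrix genes (other metalloproteinases, TIMP4 and regulators of MMPs, other ADAMTS proteases, other plasminogen and serpin genes, ADAM sheddases and matrix substrates) had 79 in the table and 71 past the filter. In either prenatal T comparison and in the difference of effects 0 of the 71 were called by limma. In granulosa the collagen I genes had the smallest p of the substrates: the log2 change was -1.56 ± 0.44 for COL1A1 and -1.31 ± 0.32 for COL1A2 with all animals, and -1.25 ± 0.32 and -1.25 ± 0.33 without sheep 209 (SE, limma adjusted p = 0.879 and 0.707). Of 16 substrates, 13 were below 0 with all animals and 15 without sheep 209. Both collagens are in the theca marker list, whose level in these granulosa libraries is given above for MMP2. Among ADAMTS proteases ADAMTS18 had -1.53 ± 0.40 with all animals (adjusted p = 0.879). In theca VCAN (versican), a substrate of ADAMTS1, had a log2 change of 1.29 ± 0.54 with all animals and 0.69 ± 0.15 without sheep 209 (limma adjusted p = 0.641 and 0.379), and ADAM12 one of 0.71 ± 0.18 with all animals (adjusted p = 0.641).

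Between the layers 43 of these 71 genes were called with all animals, 6 higher and 37 lower in granulosa, with a median of -0.70 on the log2 scale. Over all genes tested 56.6% were called, 28.7% higher and 28.0% lower. The count called in all lay near that share, but its direction did not, as most of the called genes were lower in granulosa. The lists were chosen with earlier results of these data known, and nothing is read from these counts about them. Without sheep 209, 12 were higher and 37 lower. The values that follow are with all animals. Matrix substrates had 12 of 16 called lower and 0 higher, led by COL1A1 (-4.44 ± 0.21) and COL1A2 (-4.34 ± 0.20). Of the other metalloproteinases 6 of 10 were lower and 0 higher, led by MMP28 (-3.37 ± 0.55) and MMP23B (-3.00 ± 0.23). Of the other ADAMTS proteases 8 of 16 were lower, led by ADAMTS12 (-2.69 ± 0.18) and ADAMTS9 (-2.50 ± 0.23), and 2 were higher, ADAMTS7 (1.37 ± 0.20) and ADAMTS19 (1.26 ± 0.22). Of the plasminogen and serpin genes SERPING1 (-2.45 ± 0.19) and the urokinase gene PLAU (-1.0 ± 0.30) were among 3 of 11 that were lower, and SERPINA5 (1.66 ± 0.32) was the 1 that was higher. FURIN, which activates pro-MMP14, was higher in granulosa (0.66 ± 0.05), and ADAM33 was the lowest of the ADAM sheddases (-3.44 ± 0.29). VCAN stood at 1.13 ± 0.50 with all animals (limma adjusted p = 0.0741) and was called higher in granulosa without sheep 209 (1.72 ± 0.08, adjusted p = 1.41e-08).

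Of the neighbours of MMP1 and MMP13, some were read almost only in sheep 209 and MMP8 was hardly read in any library. In the RefSeq gene order of sheep, MMP13, MMP12, MMP1, MMP8, MMP27, MMP20 and MMP7 lie in 1 stretch. A further protein-coding gene, LOC101118895, lies between MMP12 and MMP1 and is not described here. MMP7 (matrilysin) had 2311 normalized counts in granulosa and 389.7 in theca of sheep 209, against 0 in each of the other 17 libraries. MMP12 (macrophage elastase) had 178 and 36.7 in the same libraries, against at most 5.88 in the others. MMP20 had 70.2 and 17.7 (at most 6.49 in the others) and MMP27 had 13.8 and 6.33 (at most 1.62). MMP8 (neutrophil collagenase), parted from MMP1 by a pseudogene, had 1 read in granulosa and 0 in theca of sheep 209, and 0 in the other 17 libraries. Away from that stretch, MMP9 (7613 and 2815), MMP25 (2256 and 2609), PLAU (6553 and 2570) and PLAUR (4588 and 4119) also exceeded each other library, whose highest values were 1125, 35.5, 347 and 243. MMP25 and MMP8 are both in the neutrophil marker list, whose sums in sheep 209 are given above, and MMP8 did not share in that sum beyond its 1 read. The part of neutrophils or epithelium in the protease values of sheep 209 was not tested.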

How the data were processed

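RNA sequencing of microdissected granulosa and theca cells was used from 19 of 20 labelled samples. The authors deposited 1 table of signal values, in which each count of a gene was scaled by the library's size factor. Per the submitters' processing notes, the tools were FastQC 0.11.5 and MultiQC 0.9 for quality, STAR 2.6.0c, the counter featureCounts (Subread 1.6.1) and DESeq2. No genome build is given in the sources used here. Values of a library were whole multiples of its smallest step in 100% of cases (relative tolerance 1e-06), which gave back whole reads, 12.7 to 26.0 M per library.

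Tests were run with limma 3.58.1 (R 4.3.3, mean-variance trend, two-sided) on log2 of the value plus 1, over the 16269 of 28524 genes that reached 10 in 5 or more libraries. The p-values were adjusted by Benjamini-Hochberg over all of these at a threshold of 0.05. A change on this scale understates that of low genes. Prenatal T and control were compared within a layer. Layers, and the prenatal T effects in them, were compared with the animal as a fixed block, since the sheep numbers in the labels mark the same animal (deviations from group means correlated at r = 0.42 to 0.80 in 9 pairs). Alternatives were edgeR 4.0.16 and DESeq2 1.42.0 on recovered reads, other pseudocounts, no filter, TMM scaling, the block left out or added, and leaving out each animal. The fits were tested on simulated data. No library repeated another (36 pairs). The members and gene lists were chosen with earlier results of these data known. All 10 members are described, and other genes of a list were eligible by the 2 smallest p in a prenatal T comparison or, between layers, by the 2 largest called differences per direction. The neighbours of MMP1 and the further proteases of sheep 209 were chosen after their values were seen. A gene of these lists is not reported here. RefSeq names and gene order come from assembly ARS-UI_Ramb_v3.0.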

Additional observations from a re-analysis of the deposited data

Results flagged for a closer look

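In 13 of 56 sets of values (the 10 members and 4 ratios in 4 groups) 1 library stood apart from the rest of its group by Dixon's criterion. For independent sets of normally spread values the criterion flags about 1 in 20 by chance. These sets are mostly counts and share animals and genes, so that rate need not hold here. Of the 13, 10 were of sheep 209. In prenatal T granulosa these were MMP1 at 10930.2, MMP2 at 5241 and PLAT at 29058 normalized counts and the log2 ratio of PLAT to SERPINE2 at 0.32. In prenatal T theca they were MMP1 at 4627, MMP2 at 29771, MMP14 at 8775, TIMP1 at 55092, TIMP3 at 7926 and PLAT at 7559 normalized counts. Its libraries lacked defining markers of their labelled layers, and the part of that in these values was not tested.

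The other 3 came from other animals. MMP13 was 167 in control granulosa of sheep 246, where the other 3 controls lay between 1.62 and 10.0. TIMP2 was 696 in control granulosa of sheep 268, where the others lay between 1163 and 1224. The log2 ratio of MMP14 to TIMP2 was -0.38 in prenatal T granulosa of sheep 315, where the other 4 lay between 1.40 and 1.74.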

How the results depend on the processing

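Of 650 values of the members under other settings, 607 kept direction and side of the threshold. No member was called in a prenatal T comparison under any setting that gave an adjusted p; DESeq2 gave none for 5 values. Genes called in granulosa were 2 with no filter, 20 by DESeq2 and 1 with the replicate block, and in theca 2 with no filter and 7 by DESeq2. For the difference of effects DESeq2 called 20. Between layers 5729 genes were called with no replicate block, against 9213 with it. Members that turned sign had small changes: in granulosa TIMP2 (0.31 by edgeR, 0.32 by DESeq2) and MMP2 with the replicate block (-0.0076), in theca MMP2 (0.18 by edgeR, 0.20 by DESeq2) and MMP14 (0.048 and 0.069), and between effects MMP2 (0.0046 under TMM scaling, 0.037 with no replicate block). Larger moves kept their sign: with edgeR and DESeq2 on recovered reads, MMP1 was 6.29 and 6.35 in granulosa (3.39 by limma) and 6.76 and 6.79 in theca (2.22), PLAT was 3.71 and 3.78 in granulosa (1.12), MMP13 was 2.83 and 2.87 in granulosa (4.09) and TIMP1 was 1.90 and 1.93 in theca (1.11). Each of these 5 changes has a group whose sum came mostly from 1 library. Sheep 209 supplied 96.8% of MMP1 and 95.0% of PLAT in prenatal T granulosa. It also supplied 99.2% of MMP1 and 68.2% of TIMP1 in prenatal T theca. Control 246 supplied 91.2% of MMP13 in control granulosa. The part of these libraries in the moves was not tested. Leaving out 1 animal at a time moved changes across 0. In granulosa the ranges were -0.65 to 0.35 for MMP2, -0.45 to 0.25 for TIMP2, -0.30 to 0.19 for TIMP3 and -0.14 to 1.53 for PLAT. In theca they were -0.36 to 0.15 for MMP2, -0.36 to 0.14 for MMP14 and -0.37 to 0.48 for PLAT. For the difference of effects they were -0.41 to 0.20 for MMP2, -0.61 to 0.092 for TIMP2, -0.67 to 0.086 for TIMP3, -0.48 to 0.14 for ADAMTS1 and -0.38 to 0.17 for SERPINE2, and between layers -0.19 to 0.20 for TIMP3. The difference for MMP13 between effects ran from 1.87 to 2.29. Depth limits MMP1 and MMP13 in theca and control granulosa, where several libraries hold under 20 reads.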
